A study of Homo sapiens with 3 samples.

Results

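The miR-146 family was followed in extracellular vesicles (EVs) of HepG2 cells. Its members were taken by name, as every row of the table of raw miR counts that is an arm of miR-146a or miR-146b. This gave 3 of the 512 rows, hsa-miR-146a-5p, hsa-miR-146b-5p and hsa-miR-146b-3p, written without the species prefix from here on. The 3p arm of miR-146a was not analysed here. HepG2 is an established human cell line from a liver tumor, labelled wildtype and hepatocytes, and it is the only source of EVs in these data. The cells were grown with fetal bovine serum, washed and kept in serum-free medium for 48 h, and EVs were pelleted at 100000 × g for 70 min. There was 1 condition, with 3 batches of EVs and 1 small RNA library per batch, made from about 200 ng of RNA. No source says that the batches were separate cultures, so a p-value between batches sets libraries against counting noise and may reflect technical spread.

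A miR is cut from a hairpin precursor, and each side of the hairpin can give a mature miR, named 5p or 3p. miR-146a and miR-146b are encoded by separate genes. Transcription of the miR-146a gene is induced by NF-kB when innate immune receptors are engaged. Both miRs lower the signaling proteins IRAK1 and TRAF6, which carry the signal of these receptors to NF-kB. They therefore act as a brake on innate immune signaling, and miR-146a is best known from immune cells.

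The mature sequences are shown because the paralogs can only be counted apart by their last bases. They were taken from RefSeq on GRCh38.p14, are written 5′ to 3′, and have the seed (bases 2 to 8, the stretch that leads the pairing with a target) in capitals.
miR-146a-5p: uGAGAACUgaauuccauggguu
miR-146b-5p: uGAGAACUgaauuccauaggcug
miR-146b-3p: gCCCUGUGgacucaguucuggu
The 5p arms share their seed and their first 17 bases. Counted from the 5′ end of miR-146a-5p, they differ by G18A and U21C, and miR-146b-5p, with 23 bases against 22, has 1 more base at its 3′ end. Among tested miRs with a RefSeq sequence (56 of 64), no other pair shared so long a 5′ stretch. Pairs in which a tested miR lacked one, such as miR-320a and miR-320b, were not compared and may share as much. A read that ends within the first 17 bases fits both paralogs, and no source used here gives the rule by which the authors' counting assigned such reads. The sum of both 5p arms does not depend on how such reads were divided between them, although it does on whether they were kept, and it is given beside the single values. Of the other human mature miRs in RefSeq, miR-7153-5p has the same seed, and it was not analysed here. miR-146b-3p shares its seed with no other RefSeq miR.

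MIR146A lies on the plus strand of chromosome 5 from 160485352 to 160485450 (GRCh38), in exon 2 of the long non-coding RNA MIR3142HG. MIR146B lies on the plus strand of chromosome 10 from 102436512 to 102436584, overlaps no other gene of GENCODE 29 and is 3851 bases from CUEDC2, the nearest protein-coding gene. The stretch of 17 shared bases occurred in the GENCODE 29 transcripts of MIR146A, MIR146B and MIR3142HG and in no others.

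Totals ran from 7933 to 10834 miR counts per batch, and counts were divided by the batch total to give shares. A miR with no count may still have held up to 0.0345% of batch 1, 0.0277% of batch 2 or 0.0378% of batch 3, the share that 3 counts make. Intervals and floors cover counting error only, because reads amplified by PCR and carrying no molecular identifiers are not independent. For the labelled cell type, the hepatocyte miRs miR-122-5p, miR-192-5p, miR-194-5p and miR-148a-3p summed to 15.8%, 16.6% and 16.1% of the counts. Most of this sum was miR-148a-3p, at 10.5%, 12.6% and 11.2% in batches 1, 2 and 3. In the same order miR-192-5p held 2.69%, 3.02% and 3.26%, and miR-122-5p 2.48%, 0.905% and 1.64%. miR-194-5p had 17 counts in sum.

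miR-146a-5p was counted 85, 129 and 55 times in batches 1, 2 and 3. These counts were 0.977% (95% Wilson interval 0.791% to 1.21%), 1.19% (1.00% to 1.41%) and 0.693% (0.533% to 0.901%) of the batch totals. Batch 2 was highest and batch 3 lowest, and the intervals of these batches did not overlap. The mean was 0.954% ± 0.249 (SD, n = 3), rank 17 of all rows by mean share, with ranks 17, 12 and 17 in the single batches.

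For miR-146b-5p the counts in the same order were 71, 63 and 22. The shares were 0.816% (0.647% to 1.03%), 0.582% (0.455% to 0.743%) and 0.277% (0.183% to 0.420%). Batch 3 was again lowest, and its interval lay below those of both other batches, which overlapped each other. The mean was 0.558% ± 0.270 (SD, n = 3), rank 25, with ranks 22, 24 and 36 in the single batches.

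miR-146b-3p was found with 1 count in batch 1, with 0 in batch 2 and with 1 in batch 3. All these values are below the floor of 3 counts, so its level could not be told from a count of 0 in any batch.

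Together the 3 rows made up 1.80%, 1.77% and 0.983% of the counts (mean 1.52% ± 0.465, SD, n = 3). The 5p arms alone gave 1.79%, 1.77% and 0.971%. With the batch totals, the family sums of batches 1 and 2 were nearly alike, and batch 3 was lower, by 1.83-fold against batch 1 and 1.80-fold against batch 2. The likeness of batches 1 and 2 did not hold on the other scales. The family sums of batches 1, 2 and 3 were 1.47%, 1.98% and 1.08% with TMM, 1.49%, 1.94% and 1.08% with DESeq2 size factors, and 3.45%, 4.79% and 2.73% when the 5 most abundant miRs were left out of the totals. Batch 3 was lowest on each of these scales. With 425 counts, the seed of the 5p arms took place 9 of the 239 seeds that had a count, over the 451 rows with a RefSeq sequence. Rows without such a sequence were left out, and some of these had more counts. The place of the seed in the whole table was therefore further down.

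**Figure D1:**
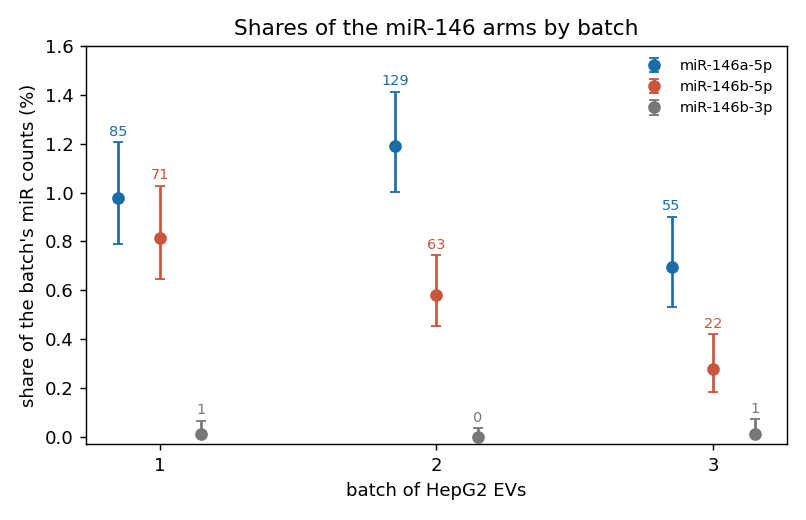
Share of the batch's miR counts (%, vertical axis) for miR-146a-5p, miR-146b-5p and miR-146b-3p in the 3 batches of HepG2 EVs. Points are single libraries, bars are 95% Wilson intervals and the number above each bar is the raw count. Both 5p arms are lowest in batch 3 (55 and 22 counts), and the 3p arm has at most 1 count.

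The order of levels around the members was not resolved. Next to miR-146a-5p stood miR-182-5p (1.02%) and miR-99b-5p (0.988%) above it and miR-3615 (0.916%) and miR-342-3p (0.842%) below it. miR-151a-3p (0.592%) and miR-93-5p (0.571%) stood above miR-146b-5p, and let-7g-5p (0.521%) and miR-1292-5p (0.492%) below it. Every mean difference from these neighbours, at most 0.111 percentage points in size, was smaller than the SD of that difference over the 3 batches, which was at least 0.163.

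The first comparison asked whether the batches carried the same share of each miR-146 arm. Every miR with at least 30 counts in sum was tested by an exact multinomial test of its counts against the batch totals, with Benjamini-Hochberg adjustment over the 64 miRs. Both 5p arms differed between the batches. For miR-146a-5p the highest share was 1.72-fold the lowest (adjusted p = 0.0114, exact multinomial test), and for miR-146b-5p 2.94-fold (adjusted p = 0.000135, same exact test). Such a call was common, as 24 miRs (37.5% of those tested) had an adjusted p under 0.05, so the call alone does not set the family apart.

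By the values alone, the batch in which the arms peaked differed from one to the other. These peaks were not resolved. For both arms the intervals of batches 1 and 2 overlapped, and neither arm was called with batch 3 left out. miR-146b-5p was highest in batch 1, and 29.7% of all tested miRs were called with their highest share there. miR-146a-5p was highest in batch 2, where 4.69% were called with their highest share. Both arms were lowest in batch 3, where 18.8% were called with their lowest share. Called or not, 43 of the 64 tested miRs were highest in batch 1, 9 were highest in batch 2 and 28 were lowest in batch 3. Relative to batch 2, batch 1 differed on the log2 scale by -0.29 for miR-146a-5p and 0.49 for miR-146b-5p, beside a median of 0.35 over the 64 miRs. This part of the pattern depended on the scale. When the 5 most abundant miRs were left out of the totals, miR-146a-5p was lowest in batch 1 (1.87%, against 3.22% and 1.92% in batches 2 and 3), and miR-146b-5p was level in batches 1 and 2 (1.56% and 1.57%, with 0.769% in batch 3).

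The lower share in batch 3 than in batch 2 was seen on every scale tried. On the log2 scale it came to -0.78 for miR-146a-5p and -1.07 for miR-146b-5p with the batch totals. Over 4 scales it ranged from -0.81 to -0.74 and from -1.09 to -1.03. These scales hardly move batch 3 against batch 2 (TMM factors of 0.911 and 0.895), so they were bound to give similar values. The median log2 ratio over all tested miRs with the batch totals was -0.05. Among the 64 miRs, miR-146a-5p and miR-146b-5p took places 6 and 3 from the lowest. With batch 1 left out, 4 of 50 tested miRs (8% of those tested) differed between batches 2 and 3, and both miR-146 5p arms were among them, with adjusted p of 0.0123 for miR-146a-5p and 0.0351 for miR-146b-5p (exact multinomial test). The others were the hepatocyte miR miR-122-5p and miR-423-5p, and both were higher in batch 3. A fall in batch 3 was not particular to the miR-146 arms. The count minimum was applied again to the batches kept, so miR-28-3p was not tested there. It had the lowest ratio of the 64 (log2 -2.19, with 25 and 4 counts in batches 2 and 3). miR-148b-3p (-1.39, with 25 and 7 counts) was also lower than both miR-146 5p arms and was not called. With batch 3 left out, neither arm was called, at an adjusted p of 0.293 for miR-146a-5p and 0.134 for miR-146b-5p (exact test), while 28.8% of 59 tested miRs were. With batch 2 left out, 33.3% of 54 were called, and the adjusted p of miR-146a-5p was 0.118 and that of miR-146b-5p 1.95e-05 (exact test).

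**Figure D2:**
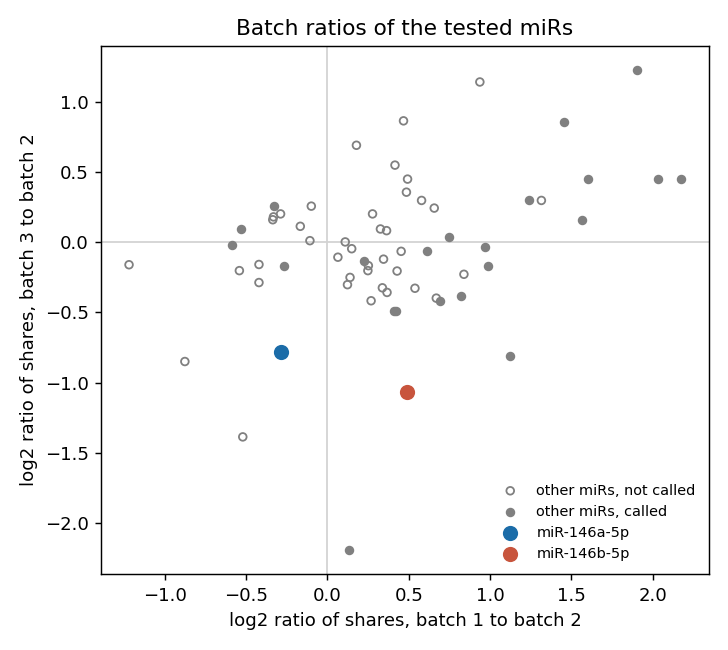
Log2 ratio of shares of batch 3 to batch 2 (vertical axis) against batch 1 to batch 2 (horizontal axis) for the 64 tested miRs, 1 point per miR. Filled grey points have an adjusted p under 0.05 over all 3 batches, and the miR-146 5p arms are colored. Both lie low on the vertical axis (-0.78 and -1.07) and on opposite sides of 0 on the horizontal axis (-0.29 and 0.49), which become -0.78 and -0.01 when the 5 most abundant miRs are left out of the totals.

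The coefficient of variation of the share over the 3 batches was 26.2% for miR-146a-5p and 48.4% for miR-146b-5p, against 10.7% and 14.0% that counting noise alone would give at their depth. The median over the 64 tested miRs was 23.1%. miR-146b-5p ranked 9 among them and miR-146a-5p 28. Without batch 3 the values were 14.0% for miR-146a-5p and 23.7% for miR-146b-5p.

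**Figure D3:**
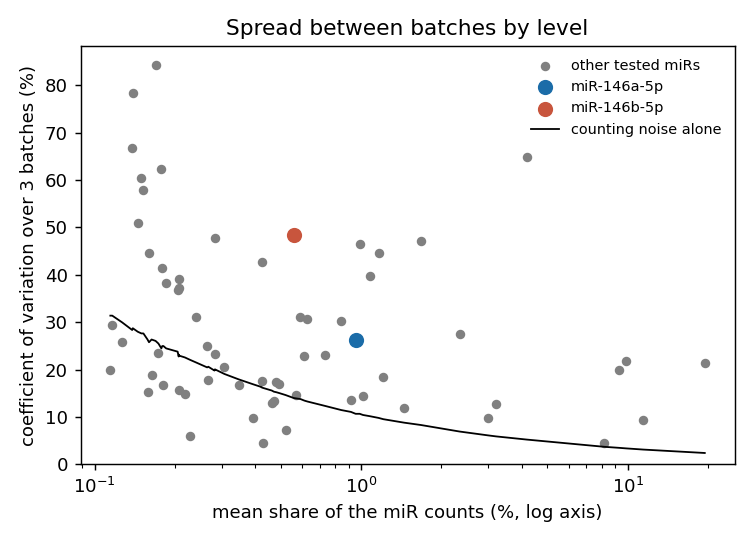
Coefficient of variation of the share over the 3 batches (%, vertical axis) against the mean share (%, log axis) for the 64 tested miRs. The black line is the value expected from counting noise alone, and both miR-146 5p arms lie above it, at 26.2% and 48.4%.

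The second comparison set the paralogs against each other within each batch, where the scaling of a library cancels. miR-146a-5p exceeded miR-146b-5p in 3 of 3 batches. It made up 54.5% of the 156 5p counts in batch 1 (exact interval 46.3% to 62.5%), 67.2% of 192 in batch 2 (60.1% to 73.8%) and 71.4% of 77 in batch 3 (60.0% to 81.2%). In batch 1 a difference from an even split was not detectable at this depth (exact binomial test, p = 0.298 adjusted over 3 batches), and it passed the test in batch 2 (6.55e-06, exact test) and in batch 3 (0.000325, exact test). The ratio of miR-146a-5p to miR-146b-5p was 1.20, 2.05 and 2.50, or 0.87 ± 0.55 on the log2 scale (SD, n = 3). A two-sided exact sign-flip test over the batches had p = 0.25 and cannot go lower with n = 3.

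Whether this ratio differed between the batches was tested by the exact Fisher-Freeman-Halton test, beside all other pairs of rows that share a miR number and an arm and differ by letter. The p was 0.0145 for the miR-146 pair, and 0.0507 after adjustment over the 7 pairs with at least 30 counts in each row, so it missed the threshold of 0.05. Of the 7 pairs, 0 (0%) passed it after adjustment and 2 before, the other being miR-30c-5p and miR-30d-5p. With 0.5 added to all counts, the log2 ratio of the miR-146 pair ranged over 1.04, and the median range over the pairs was 0.84. Between batches 1 and 2, the split (85 to 71 against 129 to 63 counts) had p = 0.0199 and an adjusted p of 0.139 (exact test). Between batches 1 and 3 (85 to 71 against 55 to 22), the p was 0.0156 and the adjusted p 0.0544 (exact test), and between batches 2 and 3 they were 0.563 and 0.825 (exact test).

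**Figure D4:**
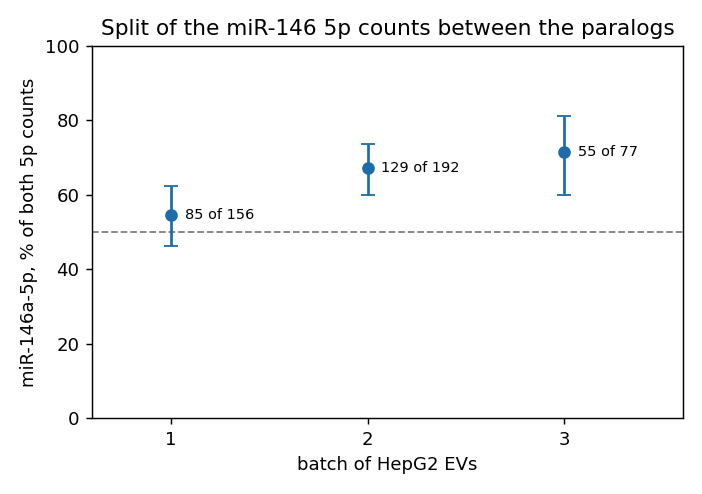
Share of miR-146a-5p among the counts of both miR-146 5p arms (%, vertical axis) in each batch. Points are single libraries, bars are exact 95% intervals and the dashed line marks an even split. Batch 1 includes the even split in its interval (46.3% to 62.5%), and batches 2 and 3 lie above it.

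The third comparison was between the arms of miR-146b. The hairpin of MIR146B is shown with both arms in capitals (RefSeq, GRCh38.p14, plus strand), to place the 5p arm near its start and the 3p arm beyond the loop.
MIR146B hairpin: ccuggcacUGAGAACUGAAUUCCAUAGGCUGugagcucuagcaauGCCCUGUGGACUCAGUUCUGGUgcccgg
Batch 1 had 71 counts of the 5p arm and 1 of the 3p arm, batch 2 had 63 and 0, and batch 3 had 22 and 1. Over the batches the 3p arm held 2 of 158 counts, or 1.27% (exact interval 0.154% to 4.50%). With 0.5 added to both arms, the log2 ratio of 5p to 3p was 5.49 ± 1.54 (SD, n = 3), a value that depends on the amount added. In 39 precursors with both arms listed and at least 30 counts in sum, the minor arm held from 0% to 45.2% of the counts, with a median of 0.252%. With 2 counts, the place of miR-146b among them was not resolved. The 5p arm was the major one in 17 of the 39.

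The profile over the batches was also set beside those of the other tested miRs. Each miR's shares were divided by their sum over the batches, and the distance of a pair was the sum of absolute differences. The nearest to miR-146a-5p were miR-148b-3p (0.129), miR-93-5p (0.143) and miR-330-3p (0.153), and the nearest to miR-146b-5p were miR-30d-5p (0.114), miR-106b-3p (0.122) and miR-26a-5p (0.129). The distance between the paralogs was 0.291, place 39 of 63 seen from miR-146a-5p and place 27 seen from miR-146b-5p. These distances rest on 3 libraries and are a description.

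A list of other miRs tied to NF-kB and innate immune signaling, chosen with the counts known, was read beside the family. Of 19 listed names, 15 were in the table and 8 of the 15 had a count, beside 316 of all 512 rows. The list was thus not clearly set apart from the table by how many rows had a count. Of the 8, 3 could be tested and 1, miR-21-5p, differed between the batches, beside 37.5% of all tested miRs. miR-21-5p is raised in many tumors and in inflammation. It had 7.32%, 2.47% and 2.76% in batches 1, 2 and 3 (adjusted p = 1.06e-63, exact multinomial test), with its highest share in batch 1. miR-125a-5p had 20, 10 and 9 counts and let-7i-5p 12, 10 and 9, and neither passed the test (adjusted p of 0.0709 and 0.715, exact test). miR-181a-5p had 14 counts in sum, miR-145-5p 13, miR-181b-5p 4, miR-132-3p 2 and miR-223-3p 1. Without miR-21-5p, the list held 104 counts, against 425 for the miR-146 5p arms, a contrast that depends on the names chosen. miR-155-5p, which NF-kB induces in activated immune cells, had no count in any batch, and neither had miR-9-5p, miR-125b-5p, miR-132-5p, miR-187-3p, miR-212-3p or miR-212-5p.

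Because miR-146a is abundant in immune cells, miRs of blood and immune cells were read in the same libraries. Of 9 listed names, 8 were in the table. Of these, 6 were at 0, beside 196 of all 512 rows. miR-142-3p, miR-142-5p, miR-150-5p, miR-155-5p and miR-451a were among the 6. The list had 3 counts in all, at 0%, 0.0185% and 0.0126% in batches 1, 2 and 3, while the miR-146 5p arms summed to 1.79%, 1.77% and 0.971%. HepG2 was the only source of EVs, so this contrast says nothing on where the miR-146 counts come from, which was not tested. The endothelial list had 0.0804%, 0.0185% and 0.0252%, the stromal list 0.103%, 0.0369% and 0.0504%, and the muscle list 1 count in batch 1. The endothelial list rested on 7, 2 and 2 counts. The endothelial and stromal lists were highest in batch 1, as were miR-146b-5p and 43 of the 64 tested miRs, and their part in its pattern was not tested.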

How the data were processed

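The members and lists were chosen with earlier results of these data known. Small RNA libraries of 3 batches of HepG2 EVs were made with a NEBNext kit and sequenced on an Illumina MiniSeq, and the authors checked quality with miRTrace. The authors deposited raw counts per miR name and batch, with no normalization. The submitters' processing notes name GRCh38, and neither an aligner nor a counting tool is named in these sources. The deposited column with the authors' mean score of the 3 counts was not used. Ligation efficiency varies with sequence, so shares of counts may depart from shares of molecules.

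Shares of the batch total, 95% intervals (Wilson for shares of a batch, Clopper-Pearson for shares of a pair), exact multinomial tests by full enumeration (outcomes ordered by Pearson's chi-square, at least 30 counts in sum) and Fisher-Freeman-Halton tests were computed and tested on simulated counts. Named miRs were the members, the neighbours by mean share up to 2 places away, the 3 miRs nearest in batch profile, the miRs of the same seed, and the lists for NF-kB signaling and for cell types. Alternatives covered TMM (edgeR 4.0.16), DESeq2 1.42.0 size factors, totals without the 5 most abundant miRs, the count minimum, the order of outcomes, the way to pool, the choice of pairs, the amount added to arms and each batch left out. Of the 512 rows, 451 matched a RefSeq mature name. Python 3.11.15, numpy 2.4.6, scipy 1.17.1, pandas 2.3.3, matplotlib 3.10.9 and R 4.3.3 were used.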

Additional observations from a re-analysis of the deposited data

How the results depend on the processing

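No paired analysis was possible because the design holds a single group. When the 5 most abundant miRs were left out of the totals, mean shares were 2.34% for miR-146a-5p, 1.30% for miR-146b-5p, 0.0190% for miR-146b-3p and 3.66% for the family, as fewer counts form the total, and 15 of 59 miRs differed between batches, against 24 of 64. TMM gave 22 and DESeq2 size factors 21. Both 5p arms passed the test under each of 6 alternatives in scale, minimum or order of outcomes, with adjusted p up to 0.0479 for miR-146a-5p (any count) and 0.0303 for miR-146b-5p (exact test). Leaving out 1 batch gave from 0.0123 to 0.293 for miR-146a-5p and from 1.95e-05 to 0.134 for miR-146b-5p (exact test), and from 4 (without replicate 1) to 18 differing miRs. It gave mean shares from 0.835% to 1.08% and from 0.429% to 0.699%, and coefficients of variation from 14.0% to 37.3% and from 23.7% to 69.7%. The mean log2 ratio of the paralogs ran from 0.65 to 1.18, and that of the miR-146b arms from 4.74 to 6.28. Lettered pairs whose ratio differed numbered from 0 to 1, the pair being miR-30c-5p and miR-30d-5p without replicate 1. The adjusted p of the miR-146 pair was 0.116 over 20 pairs with at least 10 counts and 0.145 over 10 pairs of the same seed (exact test). Scaling moved the median log2 ratio of batch 1 to batch 2 from 0.35 to -0.10 with TMM, -0.05 with DESeq2 and -0.09 without the 5 miRs. The depth left miR-146b-5p with 22 counts in batch 3 and miR-146b-3p with 2 in all.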
